A study of Mus musculus with 16 samples.

Results

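The gene Cap2 was deleted from the heart muscle cells of young mice, and RNA from their hearts and from hearts of controls was sequenced. Of 16 labelled samples in the series, 9 belong here: 5 hearts of control mice and 4 hearts of Cre+ mice, chosen by the genotype and experiment given for each sample. All were C57BL/6 mice 13 weeks old and homozygous for a loxP-flanked (Loxp/Loxp) Cap2 allele. Controls carried no Cre (replicates 1 to 3 female, 4 and 5 male), and Cre+ mice carried Cre under the Myh6 promoter (replicates 1 to 3 female, 4 male). A further male Cre+ sample has no column of values and was not analysed here. The other experiment of the series measured hearts of 86-week-old female C57BL/6 mice, 3 wild type and 3 CAP2 -/-, with another library kit, and is used below for side by side values only. No group carried Cre without the floxed allele, so an effect of the Cre transgene and an effect of losing Cap2 cannot be told apart. Other cells of the heart, in which the Myh6 promoter is not active, keep the gene.

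CAP2 is a cyclase-associated protein of striated muscle that works with cofilin to take actin filaments apart and to reload actin monomers for the next round of assembly. Free actin monomers hold the co-activator MRTF out of action, and MRTF released from them switches on genes with its partner SRF, which binds a DNA element named the CArG box. Mice without CAP2 develop dilated cardiomyopathy, in which the ventricle widens and pumps weakly, and the study's title places MRTF and SRF in that disease.

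Values are the authors' normalized counts, whole numbers whose nuclear genes summed to between 3815980 and 4044523 per library, and the sequencing depth behind them is unknown. Control replicate 4 stood apart, with correlations of 0.716 to 0.848 to the other libraries over all genes tested (Pearson, on log2 values, which share depth and tissue) against 0.821 to 0.953 among the rest. Cre+ replicate 1 correlated most with control replicate 2 (0.948), and at 0.897 to 0.932 with the other Cre+ libraries. The atrial genes Myl7, Myl4 and Sln separated libraries rather than groups: Myl7 was at 21, 344, 3014, 16 and 58 normalized counts in control replicates 1 to 5 and at 105, 6996, 10677 and 17044 in Cre+ replicates 1 to 4. Cre+ replicate 1 thus lay below control replicates 2 and 3 for Myl7, while the other 3 Cre+ hearts lay above every control. Whether the libraries held different amounts of atrial tissue was not tested. Summed markers of ventricular cardiomyocytes overlapped, at 277656 to 423667 in controls and 247502 to 357734 in Cre+. Of 20 library measures compared by an exact two-sided permutation test, none passed after adjustment (smallest adjusted p = 0.0794, from the smallest p the test allows, 0.0159).

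Cap2 itself, on chromosome 13 from 46501848 to 46650281 of mm10, was at 342, 186, 878 and 381 normalized counts in control replicates 1, 3, 4 and 5, a little lower in replicate 2, and at 33, 60, 80 and 87 in Cre+ replicates 1 to 4. Every Cre+ heart lay below every control, and Cre+ replicate 1 held the lowest value of all. The change was -2.22 on the log2(normalized count + 1) scale (SE 0.36, limma adjusted p = 0.0161), and the call was lost without control replicate 1 (adjusted p = 0.0687) or Cre+ replicate 4 (0.0922). Its relative Cap1, the form found in most other cells, was at 174 to 443 in controls and 217 to 422 in Cre+ and did not pass (log2 change 0.23, SE 0.31, adjusted p = 0.681). In RNA of heart tissue, fewer cells of a type and less RNA per cell cannot be told apart, here and for every gene below.

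Across the transcriptome, the genes that rose in the Cre+ hearts included the contractile genes Acta1 and Tnnt3, the stress hormone gene Nppb, the growth factor gene Tgfb2 and the matrix gene Thbs4. Those that fell included the citrate cycle gene Ogdhl, the potassium channel gene Kcnv2 and the phosphodiesterase gene Pde4d. Of 12141 genes tested (mean normalized count of at least 10), 228 or 1.88% were called at a limma adjusted p under 0.05, 115 higher (0.947%) and 113 lower (0.931%). The groups did not overlap for 205 of the 228 called genes and for 1052 of all genes tested (8.66%, 3.87% higher and 4.79% lower). Among named genes with a mean of at least 50 and separate groups, the 20 largest rises ran from log2 3.35 for Myl1 to 5.89 for Tnnt3, and the 20 largest falls from -1.87 for Il15 to -3.77 for Kcnv2. The median over all genes tested was -0.12. The split between directions moved with the scaling. TMM factors gave 139 rises and 72 falls, and quantile normalization gave 211 and 124.

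**Figure D1:**
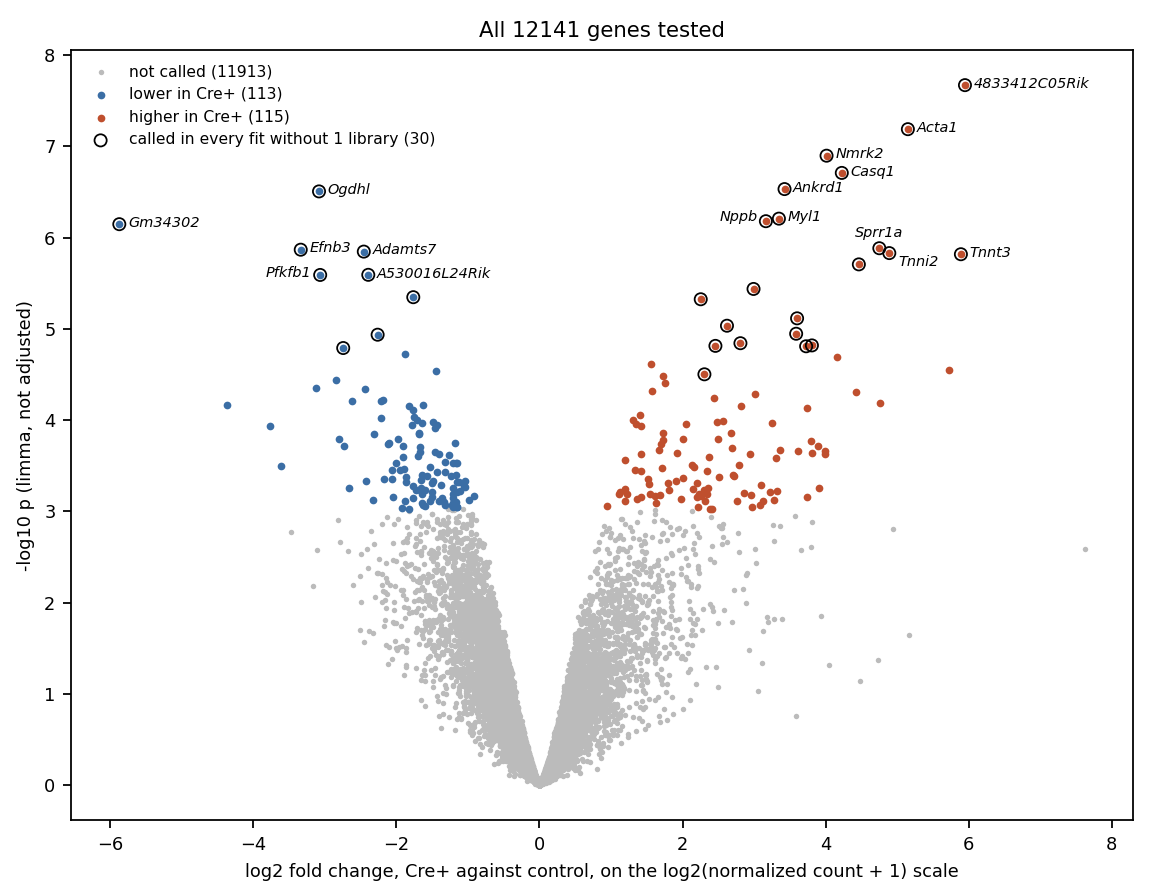
Log2 fold change of Cre+ against control (x axis, log2(normalized count + 1) scale) and -log10 of the unadjusted limma p (y axis) for 12141 genes, with 115 called higher in orange, 113 called lower in blue and the rest in grey. Circles mark the 30 genes called in all 9 fits that leave out 1 library; 21 of them lie on the right and 9 on the left.

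The number of calls depended on single libraries. It was 48, 45, 82, 403 and 525 without control replicates 1 to 5 and 695, 39, 48 and 57 without Cre+ replicates 1 to 4. Leaving out control replicate 4 and Cre+ replicate 1 together, a choice made after seeing the data, gave 366 higher and 1073 lower. A core of 30 genes was called with all libraries and in each of the 9 fits without 1 of them. Of these 21 rose, among them 4833412C05Rik, Acta1, Ankrd1, Casq1, Edn1, Gm11627, Gm30735, Krt18, Lgals3, Lman1l, Myl1, Nmrk2, Nppb, Ptprn, Sprr1a, Tgfb2, Thbs4, Tnni2, Tnnt3 and Uchl1. The 9 that fell were A530016L24Rik, Adamts7, Cpeb3, Efnb3, Gm34302, Ogdhl, Pfkfb1, Smco1 and Ttll1. Every other called gene lost its call without at least 1 library, and none of 86 called genes named here changed direction in those fits. The 86 were picked by their call in these same libraries, so a kept direction is no separate support.

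Cre+ replicate 1, the heart nearest to the controls in overall correlation, was outside the control range for most of the rises and for fewer of the falls seen in the other 3 Cre+ hearts, a difference that was not tested. Without that library 210 genes were called higher (1.73%) and 485 lower (4.01%). Its own values, which those calls did not use, lay above every control for 163 of the 210 (77.6%), against 14.0% of all 12104 genes. They lay below every control for 179 of the 485 (36.9%), against 13.1% of all genes. The median difference of Cre+ replicate 1 from the control mean was 1.35 on the log2 scale for the 210 genes, -0.28 for the 485 and 0.05 for all genes. These values were chosen after seeing the data, and the control libraries are shared by the calls and by the differences.

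**Figure D2:**
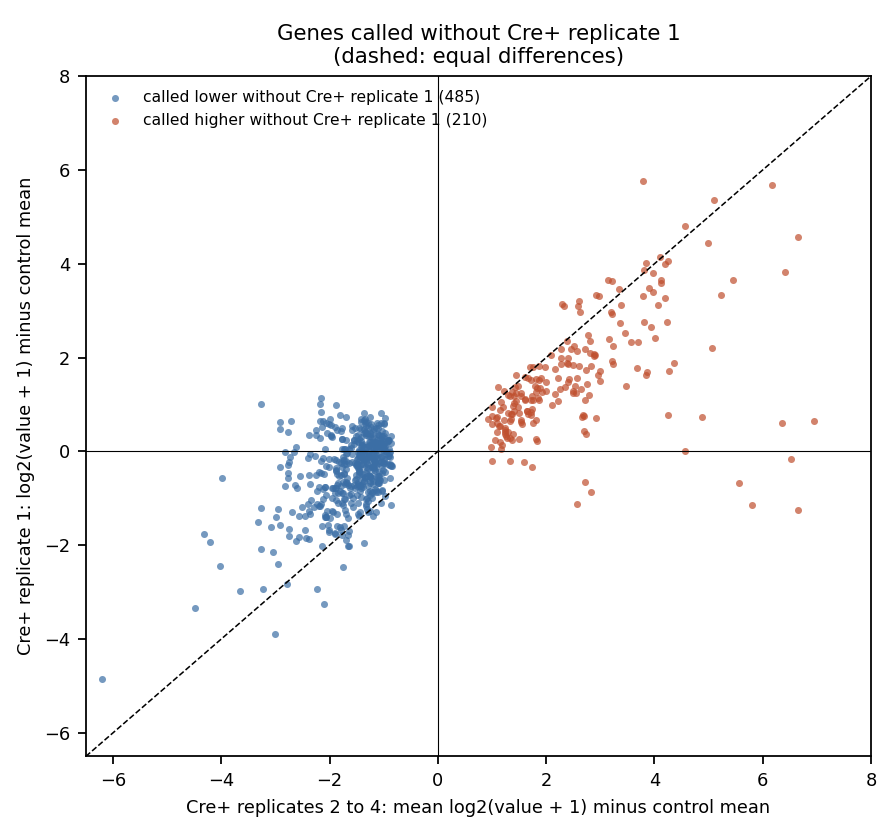
Genes called without Cre+ replicate 1, with the difference of Cre+ replicates 2 to 4 from the control mean on the x axis and that of Cre+ replicate 1 on the y axis (both log2(normalized count + 1)). The 210 genes called higher (orange) lie mostly above 0 on the y axis, with a median of 1.35, while the 485 called lower (blue) gather near 0 with a median of -0.28.

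Some genes best known from skeletal muscle fibres were among the largest rises. Acta1, skeletal alpha-actin, which the fetal and the overloaded heart also makes (chromosome 8, 123891769 to 123894751), was at 763, 1011, 1133, 515 and 1869 in the 5 controls. In the 4 Cre+ hearts it was at 39861, 60097, 20195 and 29876 (log2 change 5.15, SE 0.42, adjusted p = 0.000395). The lowest Cre+ value was over the highest control value by a wide margin. Fast troponin T, Tnnt3, went from 5, 7, 13, 3 and 3 to 150, 1024, 2011 and 130 (log2 5.89, SE 0.65, adjusted p = 0.00132). Fast troponin I, Tnni2, its neighbour on chromosome 7, went from 15, 19, 7, 5 and 6 to 970, 280 and 314 in Cre+ replicates 2 to 4, with replicate 1 lower but far above the controls (log2 4.89, SE 0.54, adjusted p = 0.00132). Tnnt3 was highest in Cre+ replicate 3 and Tnni2 in replicate 2, and each Cre+ heart lay above every control for both.

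Casq1, the calcium store protein of skeletal sarcoplasmic reticulum (chromosome 1, 172209894 to 172219868), was at 26, 58, 88, 31 and 64 in controls and at 820, 603, 967 and 1403 in Cre+ (log2 4.23, SE 0.38, adjusted p = 0.000594). Myl1, a myosin light chain found in fast muscle and in atria, was at 90 to 328 in controls against 1265, 3273, 4434 and 1239 (log2 3.35, SE 0.34, adjusted p = 0.000963). The skeletal calcium pump gene Atp2a1 was at 1 or 0 in every control and at 7, 65, 47 and 60 in Cre+ (log2 4.43, SE 0.70, adjusted p = 0.0142). Mybpc2, fast myosin-binding protein C, rose less (log2 1.73, SE 0.31, adjusted p = 0.0226). These last 2 lost their call without single libraries, Atp2a1 when Cre+ replicate 2, 3 or 4 was left out (highest adjusted p = 0.112) and Mybpc2 when control replicate 1 or 2 or Cre+ replicate 2 or 4 was (0.0809).

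Of 17 fast and slow skeletal muscle genes tested, 6 rose and 11 were not called, with a median log2 change of 1.11 against -0.12 for all genes. Of 12 markers taken as defining skeletal muscle fibres 5 could be tested, and Atp2a1 and Mybpc2 were the 2 that rose. The summed level of the 12 markers was 7444 to 10770 in controls and 4418 to 11865 in Cre+. The 2 that rose were a small part of it, Mybpc2 at 62 to 141 in controls and 224 to 524 in Cre+ and Atp2a1 at most 1 and 65. The sum therefore cannot show whether skeletal fibres were present. Mylpf, the fast regulatory light chain, was at 4 to 18 in controls and 7 to 35 in Cre+ (log2 0.78, adjusted p = 0.429), and Ckm, muscle creatine kinase, gave -0.23 (0.703). The adult skeletal myosins Myh1, Myh2 and Myh4 stayed at 3 or less in all 9 libraries. Myog was at 0 in all 4 Cre+ hearts, as was Myod1. The neonatal myosin Myh8 was at 0 in every control and in Cre+ replicate 1 and at 19, 10 and 15 in the other 3, too low to be tested. No member of the 8 tested myogenic regulators and embryonic muscle genes was called by limma, and 3 had an unadjusted p under 0.05.

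Set against the cardiac partner per base of exon, the skeletal forms took a larger share in every Cre+ heart. Acta1 made up 1.06% to 6.20% of the sum of Acta1 and the cardiac actin Actc1 in controls and 32.2% to 49.8% in Cre+. Casq1 made up 0.564% to 3.44% of its pair with Casq2 in controls and 25.8% to 39.5% in Cre+. The troponin pairs stayed cardiac: Tnnt3 reached 1.45% to 17.5% of the pair with Tnnt2 in Cre+ against at most 0.247%, and Tnni2 0.540% to 5.64% of the pair with Tnni3 against at most 0.046%. None of the 4 cardiac partners was called, with log2 changes of 0.96 for Actc1 (SE 0.31, adjusted p = 0.121), 0.26 for Tnnt2, -0.56 for Tnni3 and -0.27 for Casq2. The values are shares of normalized counts divided by the summed exon length of each gene, and do not know which isoform was made. That length was 1583 bases for Tnnt3 and 7752 for Tnnt2, so the division raises the Tnnt3 share. Without it, Tnnt3 was at 2011 beside 46384 for Tnnt2 in Cre+ replicate 3, the library with the 17.5%.

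**Figure D3:**
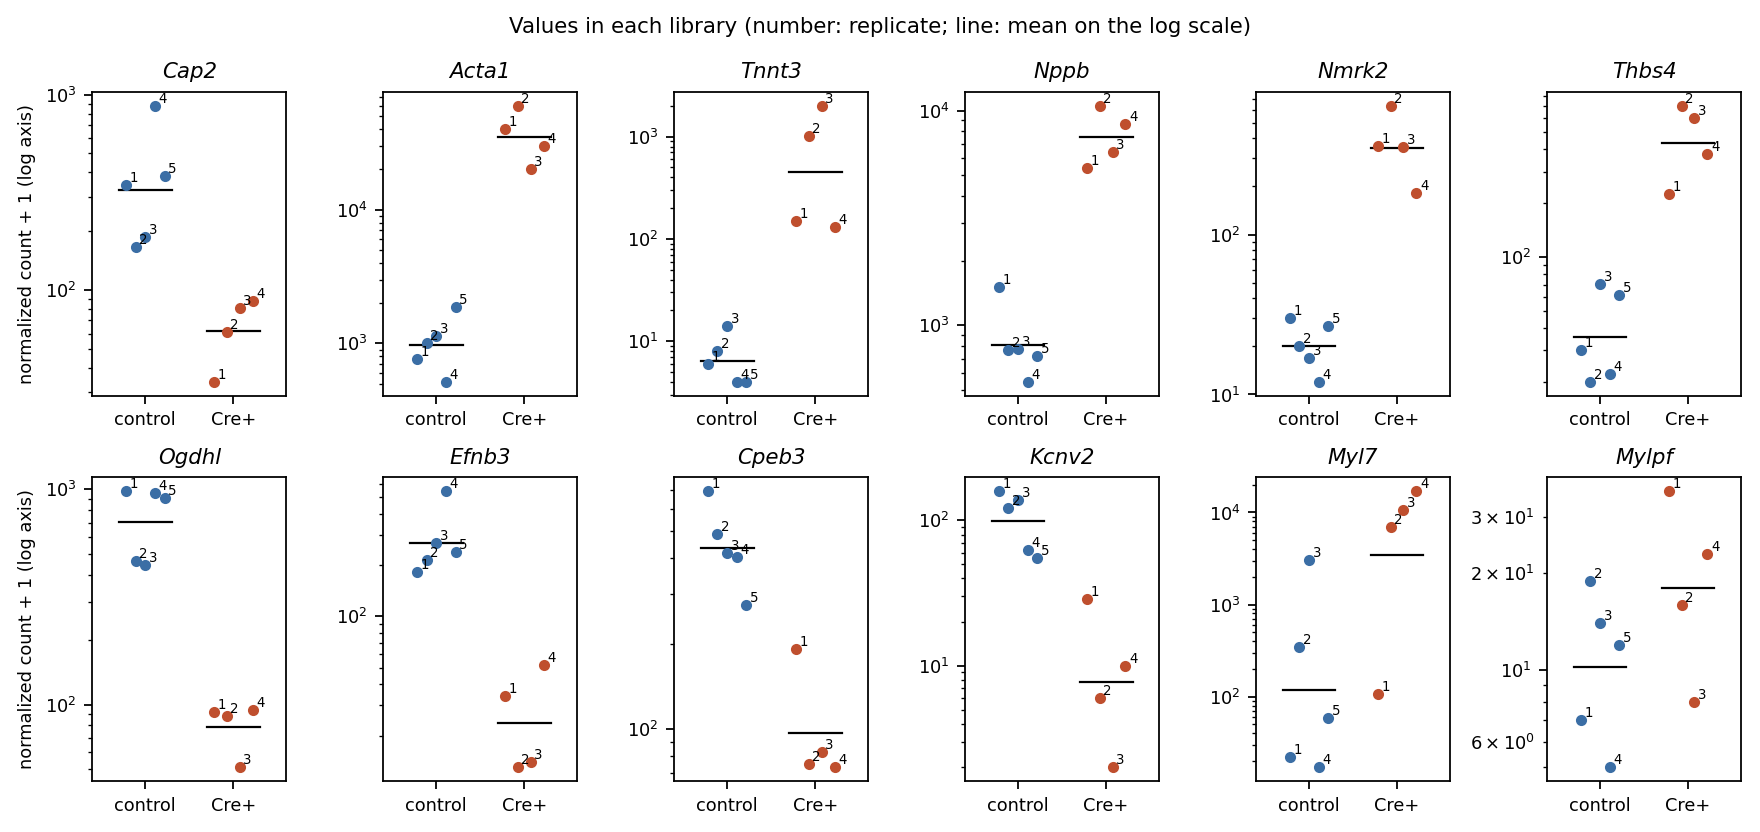
Normalized count plus 1 (log axis) of 12 genes in each library, numbered by replicate, with the mean on the log scale as a line. For Cap2, Ogdhl, Efnb3, Cpeb3 and Kcnv2 all 4 Cre+ hearts lie under the 5 controls, and for Acta1, Tnnt3, Nppb, Nmrk2 and Thbs4 over them. For the atrial gene Myl7 and the skeletal marker Mylpf the groups overlap.

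Since MRTF and SRF act through the CArG box, the windows before the start of called genes were searched for it. The element, 10 bases long and read the same on both strands, was looked for in RefSeq promoters of GRCm38.p6 from 250 bases before to 50 after each start, and 84 of the 115 genes called higher and 73 of the 113 called lower had such a window. An exact box lay in 4 of the 84 (4.76%), in none of the 73, and in 159 of the 9485 genes tested that have a window (1.68%; 1.63% of all windows in the table). With 1 mismatch in the middle bases the shares were 14.3%, 12.3% and 10.8%. A match is a description of the letters, not of binding. The 4 genes are Acta1, the smooth muscle light chain gene Myl9, Trnp1 and the long non-coding RNA 4833412C05Rik, whose rise had the smallest p of all. The starts are those of RefSeq. For 4833412C05Rik the window lies inside the gene as annotated by GENCODE, which places its start on the minus strand at 67804139. The 250 bases before each RefSeq start are shown with the box in capitals, 5′ to 3′ on the strand of the gene.
4833412C05Rik (chr7:67803497-67803746, minus strand): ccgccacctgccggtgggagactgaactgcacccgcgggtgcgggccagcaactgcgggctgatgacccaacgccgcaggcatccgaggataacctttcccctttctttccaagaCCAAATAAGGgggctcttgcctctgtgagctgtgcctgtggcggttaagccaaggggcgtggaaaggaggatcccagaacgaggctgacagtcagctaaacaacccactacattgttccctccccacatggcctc
Acta1 (chr8:123894776-123895025, minus strand): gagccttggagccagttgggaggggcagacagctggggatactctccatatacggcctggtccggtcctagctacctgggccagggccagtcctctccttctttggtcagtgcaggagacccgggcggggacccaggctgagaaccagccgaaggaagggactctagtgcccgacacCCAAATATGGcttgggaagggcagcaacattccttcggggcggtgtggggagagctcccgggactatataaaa
Myl9 (chr2:156775214-156775463, plus strand): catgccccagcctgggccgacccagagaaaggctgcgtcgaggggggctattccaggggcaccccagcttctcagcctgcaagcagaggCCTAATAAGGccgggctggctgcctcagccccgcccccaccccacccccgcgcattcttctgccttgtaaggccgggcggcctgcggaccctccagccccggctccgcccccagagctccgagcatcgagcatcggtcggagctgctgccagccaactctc
Trnp1 (chr4:133498551-133498800, minus strand): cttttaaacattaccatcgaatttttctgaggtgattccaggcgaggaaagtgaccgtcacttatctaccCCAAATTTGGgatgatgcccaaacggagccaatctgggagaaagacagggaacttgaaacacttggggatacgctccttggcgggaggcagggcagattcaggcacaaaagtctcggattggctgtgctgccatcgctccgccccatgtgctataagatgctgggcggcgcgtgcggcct
The boxes begin 135, 73, 161 and 180 bases before the RefSeq start of 4833412C05Rik, Acta1, Myl9 and Trnp1.

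The RNA 4833412C05Rik (chromosome 7, 67784538 to 67804139) was at 1, 1, 1, 0 and 1 in the controls and at 88, 141, 182 and 74 in Cre+ (log2 5.95, SE 0.43, adjusted p = 0.00026). It was near absent from control hearts and present in each Cre+ heart, replicate 1 included. Myl9 was at 312, 1198, 1355, 92 and 1444 against 7020, 8105, 12347 and 10583 (log2 3.90, SE 0.72, adjusted p = 0.0264). Trnp1, a nuclear protein gene outside the rule by which genes were picked, was at 4 to 41 against 73 to 132. Of 28 MRTF/SRF cytoskeletal targets tested, 5 rose and 23 were not called, with a median log2 change of 0.94. Beside Acta1 and Myl9 the 5 held Acta2, smooth muscle actin (710, 2279, 1458, 267 and 3383 against 14537, 9157, 9217 and 15255), Ccn2, a matrix-associated growth regulator, and Pdlim7, a PDZ-LIM protein that binds actin filaments. Acta1 was called in all 9 fits without 1 library, Pdlim7 in 5, Myl9 and Ccn2 in 4 and Acta2 in 3. The number of members called higher in those fits ran from 1 to 8. The list was assembled with results of these samples known and is no independent evidence of its direction. Acta2 and Myl9 are made by smooth muscle cells too. The summed markers of smooth muscle and pericytes ran from 5975 to 14759 in controls and from 15208 to 25504 in Cre+. Acta2 is itself in that sum and was a large part of it in Cre+, at 14537 of 19991, 9157 of 15208, 9217 of 18822 and 15255 of 25504. The sum is thus no separate measure of those cells, and the part of smooth muscle cells in these values was not tested.

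Stress hormones and growth factors rose in the same hearts. Nppb, the B-type natriuretic peptide gene that stretched heart muscle secretes (chromosome 4, 147985788 to 147987205), was at 1502, 766, 778, 544 and 721 in controls and at 5386, 10563, 6451 and 8628 in Cre+ (log2 3.17, SE 0.32, adjusted p = 0.000963). Its relative Nppa was higher in every Cre+ heart, at 80982 to 155401, but was listed at 0 in control replicate 4 and at 628 to 2511 in the other controls, and did not pass (log2 7.62, SE 1.81, adjusted p = 0.0742). Without control replicate 4 Nppa passed (log2 6.12, limma adjusted p = 3.47e-06). Ankrd1, a titin-linked stretch protein, was at 2421, 1648, 2242, 6120 and 2804 against 23904, 35653, 21793 and 30348 (log2 3.43, SE 0.32, adjusted p = 0.000632). The nicotinamide riboside kinase gene Nmrk2, which feeds NAD synthesis, was at 29, 19, 16, 11 and 26 against 355, 640, 351 and 181 (log2 4.01, SE 0.35, adjusted p = 0.000514). Among 17 cardiac stress and fetal genes tested, 8 rose, none fell and the median log2 change was 3.17.

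Among secreted ligands of the TGF-beta family, Tgfb2, Tgfb3, Gdf15 and Gdf6 were 4 of the 7 that rose of 33 secreted growth factors and hormones tested. Tgfb2 was at 11, 29, 43, 48 and 66 in controls and at 178, 271, 235 and 229 in Cre+ (log2 2.81, SE 0.39, adjusted p = 0.00673). Edn1, the vessel-constricting peptide endothelin, was at 18, 17, 23, 23 and 39 against 86, 95, 212 and 98 (log2 2.31, SE 0.35, adjusted p = 0.0109). Gdf15, a hormone of stressed tissue that acts on the brainstem, was at 14, 11, 4, 0 and 11 against 101, 316, 50 and 100 (log2 4.00, SE 0.76, adjusted p = 0.028), and lost its call when control replicate 1, 2 or 3 or Cre+ replicate 2 or 4 was left out (highest adjusted p = 0.156). The groups did not overlap for any of these 3. Fgf9, a growth factor, was the 1 member that fell (log2 -1.64). Lgals3, the sugar-binding galectin-3 made by macrophages and injured tissue, was at 21, 41, 90, 10 and 51 against 299, 583, 800 and 406 (log2 3.73, SE 0.52, adjusted p = 0.00673). None of 13 macrophage markers was called by limma, and 4 had an unadjusted p under 0.05. All 13 lay above 0, with a median log2 change of 0.73 against -0.12 for all genes. Their sum ran from 1618 to 4775 in controls and from 3164 to 6580 in Cre+.

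A few genes of the cytoskeleton were called. Krt18, a keratin of simple epithelia, was at 6, 12, 14, 4 and 38 in controls and at 134, 235, 163 and 152 in Cre+ (log2 3.81, SE 0.53, adjusted p = 0.00673). Its filament partner Krt8 was too low to be tested, at 1 to 17 against 9 to 19. The muscle filament gene Des, desmin, was at 14942, 9643, 7834, 7558 and 10781 against 25189, 48055, 40098 and 24761 (log2 1.70, SE 0.31, adjusted p = 0.0259), and Synm, which joins desmin filaments, rose by 2.21 (SE 0.48, adjusted p = 0.0437). Each lost its call without any 1 of control replicates 1 to 3 or Cre+ replicates 2 to 4 (highest adjusted p = 0.106 for Des and 0.16 for Synm). Ttll1, part of an enzyme that adds glutamate chains to tubulin, moved the other way, from 313, 262, 226, 267 and 289 to 89, 66, 60 and 99 (log2 -1.76, SE 0.22, adjusted p = 0.00288). Its spread within the groups was small beside the gap between them. In all, 3 rose and 1 fell of 30 microtubule, kinesin and intermediate filament genes tested, and 13 lay higher without overlap. The filament cross-linker Flnc (log2 1.42), the Z-disc protein gene Synpo2l (1.72) and Abra (2.30), an actin-binding activator of SRF, rose as well. The deubiquitinase gene Uchl1 was at 91, 72, 96, 39 and 72 against 255, 507, 382 and 335 (log2 2.26, SE 0.28, adjusted p = 0.00288).

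Matrix genes outside the fibrillar collagens gave the largest number of calls of the 44 pathway lists, at 11 of 32 matrix glycoproteins and crosslinking genes (median log2 change 2.05, 30 above 0). In the fits without 1 library the number called on that list ran from 1 to 22. Thbs4, a thrombospondin of stressed muscle and tendon (chromosome 13, 92751590 to 92794818), was at 29, 19, 70, 21 and 60 in controls and at 223, 703, 602 and 376 in Cre+ (log2 3.60, SE 0.47, adjusted p = 0.00443). Tnc, tenascin C of healing tissue, was at 3, 6, 7, 5 and 16 against 38, 58, 106 and 46 (log2 3.01, SE 0.48, adjusted p = 0.0147). The fibrillin gene Fbn1 (log2 1.73, SE 0.31), the microfibril gene Mfap5 (2.51, SE 0.51), Ltbp2, a microfibril-associated protein gene (3.74, SE 0.81), and Postn, periostin of activated fibroblasts (3.10, SE 0.65), were among the others. Postn was lowest at 980 in Cre+ replicate 4, under the 1046 of control replicate 5, so these groups overlapped. Thbs4 was called in all 9 fits without 1 library, Tnc in 6, Fbn1 in 4, Mfap5 and Postn in 3 and Ltbp2 in 2. Of 20 collagens of fibrils and basement membranes, Col8a1 alone was called (log2 2.50, SE 0.45, adjusted p = 0.0247), though 19 of 20 lay above 0 and the median was 1.51.

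Of 24 matrix proteases and inhibitors tested 5 rose and 1 fell, with 19 above 0 and a median log2 change of 0.84. Adamts8, a secreted metalloprotease, was at 3, 7, 25, 2 and 31 in controls and at 134, 1302, 1179 and 350 in Cre+ (log2 5.73, SE 0.85, adjusted p = 0.0103). Its relative Adamts7 fell, from 192, 221, 200, 87 and 70 to 53, 23, 34 and 15 (log2 -2.46, SE 0.27, adjusted p = 0.00132), and was called in every fit without 1 library. Timp1, an inhibitor of matrix metalloproteases, rose (log2 3.74, SE 0.62, adjusted p = 0.017), as did Adamtsl2, a fibrillin-binding protein gene (2.86, SE 0.61, adjusted p = 0.0432). Lama5, a laminin chain of basement membranes, fell (log2 -1.67, SE 0.31, adjusted p = 0.0278). Summed markers of activated fibroblasts were 622 to 5777 in controls and 17781 to 20495 in Cre+. Summed markers of all fibroblasts overlapped, at 8444 to 32102 and 26655 to 40722. All 13 of these general markers lay above 0 all the same, with a median log2 change of 0.78, and 1 was called. Acta2, the smooth muscle actin above, is on the activated list and was a large part of its sum in Cre+. It held 14537 of 20495, 9157 of 17781, 9217 of 19393 and 15255 of 18901 in replicates 1 to 4. The 2 fibroblast lists also share members with the matrix lists, and how far cell numbers move these matrix values was not tested.

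A smaller group of rises belonged to mitochondrial one-carbon and amino acid synthesis and to cell stress. Mthfd2, the mitochondrial folate enzyme, was at 13, 20, 24, 8 and 42 in controls and at 63, 148, 194 and 129 in Cre+ (log2 2.68, SE 0.48, adjusted p = 0.0226). Pycr1, the last enzyme of proline synthesis, was at 3, 14, 6, 2 and 2 against 18, 55, 79 and 25 (log2 2.73, SE 0.55, adjusted p = 0.037). With Gdf15 these made 3 of 27 serine, folate and stress response genes that rose, while Vldlr, a lipoprotein receptor gene on that list, fell (log2 -1.87). The serine synthesis genes Phgdh and Psat1 were not called, and neither was Atf4, the transcription factor that commands this response (log2 0.86, adjusted p = 0.16). The growth gene Myc was at 12, 6, 7, 13 and 28 against 43, 45, 30 and 65 (log2 2.01, SE 0.36, adjusted p = 0.0247). Tent5b, which lengthens RNA tails, rose by 4.77 (SE 0.78, adjusted p = 0.0163). Mthfd2 and Tent5b lost their calls without control replicate 2 or any 1 of Cre+ replicates 2 to 4, Mthfd2 also without control replicate 1, and Pycr1 and Myc without any 1 of control replicates 1 to 3 or Cre+ replicates 2 to 4.

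Genes of fuel oxidation were among the falls. Ogdhl, a form of the oxoglutarate dehydrogenase of the citrate cycle (chromosome 14, 32322019 to 32348151), was at 980, 462, 443, 964 and 908 in controls and at 91, 87, 50 and 93 in Cre+ (log2 -3.08, SE 0.29, adjusted p = 0.000632). No Cre+ heart came near the lowest control. Pfkfb1, which sets the level of the glycolysis activator fructose bisphosphate (chromosome X, 150588229 to 150643878), was at 112, 78, 95, 89 and 69 against 20, 7, 15 and 5 (log2 -3.07, SE 0.35, adjusted p = 0.00183). It was the 1 called gene among 24 of glycolysis and glucose uptake. Of 32 genes of fatty acid uptake and oxidation 3 fell, none rose, 31 lay below 0 and 13 lay lower without overlap, with a median of -1.05.

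The 3 called fatty acid genes each carried a different step. Acot1, which splits fatty acyl-CoA, was at 42, 64, 78, 39 and 53 in controls and at 17, 20, 15 and 12 in Cre+ (log2 -1.76, SE 0.29, adjusted p = 0.0174). Ucp3, an uncoupling protein of muscle mitochondria, was at 516, 384, 246, 408 and 228 against 170, 181, 107 and 33 (log2 -1.87, SE 0.39, adjusted p = 0.0393). Decr1, needed for unsaturated fats, was at 2055, 2254, 1536, 3356 and 2442 against 1077, 896, 677 and 1272 (log2 -1.15, SE 0.24, adjusted p = 0.0393). All 4 Cre+ hearts lay under every control for each. Near the threshold stood the beta-oxidation genes Acaa2 (log2 -1.16, adjusted p = 0.0576) and Hadh (-1.15, 0.0588) and the lipase gene Lpl (-1.13, 0.0588). The 3 calls were lost without control replicate 2 or any 1 of Cre+ replicates 2 to 4 and 1 or 2 further controls (highest adjusted p = 0.172, for Ucp3), while 14 members were called lower without control replicate 4 and 8 without Cre+ replicate 1.

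Neighbouring pathways held 1 to 3 lower calls each. Idh2, mitochondrial isocitrate dehydrogenase, fell (log2 -1.20, SE 0.27, adjusted p = 0.0488) and with Ogdhl made 2 calls among 30 genes of the citrate cycle and pyruvate oxidation (median -0.61, 29 below 0). Bckdhb, of the dehydrogenase that breaks down branched-chain amino acids, fell (log2 -1.26, SE 0.24, adjusted p = 0.0283) as the 1 call of 22. Of 39 Slc25 mitochondrial carriers 3 fell: the coenzyme A carrier gene Slc25a42 (log2 -2.10), Slc25a34 (-1.75) and the glutamate carrier gene Slc25a22 (-1.16). The carnitine importer gene Slc22a5 (log2 -1.64) and Dgat2, which makes triglyceride (-1.20), fell too. Among 92 nuclear subunits of the respiratory chain none was called by limma, beside 1.88% of all genes tested. Of these 33 lay above 0 and 59 below, with a median of -0.08. The 28 genes of mitochondrial dynamics had no call by limma either, with a median of -0.41. At an unadjusted p under 0.05 the 2 lists held 5 and 9 genes. Mitochondrially encoded RNA made up 30.4% to 69.5% of all values in controls and 23.0% to 52.7% in Cre+. A fit that holds this share as a covariate called 36 genes, and its part in the falls was not tested.

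Some genes of ion channels and of cyclic nucleotide signalling fell. Kcnv2, a silent partner of potassium channels, was at 158, 121, 137, 62 and 54 in controls and at 28, 5, 1 and 9 in Cre+ (log2 -3.77, SE 0.66, adjusted p = 0.0203). Clcn1, the chloride channel of skeletal muscle, was at 50, 96, 85, 36 and 6 against 3, 1, 0 and 2 (log2 -4.37, SE 0.72, adjusted p = 0.0163). Abcc9, the sulfonylurea receptor of the ATP-gated potassium channel, was at 652, 554, 482, 2685 and 817 against 268, 238, 222 and 243 (log2 -1.63, SE 0.36, adjusted p = 0.0477). These groups were separate for all 3 genes, with control replicate 5 nearest to Cre+ for Clcn1. Kcnv2 and Abcc9 were the 2 of 25 potassium channel genes called (median -0.60). Kcnv2 and Clcn1 lost the call without any 1 of control replicates 1 to 3 or Cre+ replicate 2. Abcc9 was called in 3 of the 9 fits without 1 library (highest limma adjusted p = 0.253).

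Phospholamban, the brake on the cardiac calcium pump, fell: Pln was at 8324, 6098, 6017, 17025 and 7680 in controls and at 3096, 2871, 2161 and 2922 in Cre+ (log2 -1.53, SE 0.30, adjusted p = 0.0333). It was the 1 call in a list of 19 calcium handling genes of the sarcoplasmic reticulum, which does not hold the skeletal forms Casq1 and Atp2a1, and the pump gene Atp2a2 gave -0.96 (SE 0.37, adjusted p = 0.17). The phosphodiesterase genes Pde4d (log2 -2.01, SE 0.39) and Pde1c (-1.65, SE 0.35), which break down cyclic nucleotides, fell with Adcy6, an adenylyl cyclase that makes cyclic AMP (-1.67, SE 0.35), 3 of 27 genes of that list. The groups overlapped for Adcy6, with Cre+ replicate 1 at 986 and control replicates 4 and 5 at 872 and 795. For Pde4d control replicate 5 and Cre+ replicate 1 were both at 53. Pln, Pde1c and Adcy6 were each called in 3 of the 9 fits without 1 library, and Pde4d in 4. Agtr1a, the angiotensin II receptor, was at 97, 157, 135, 347 and 104 against 40, 23, 26 and 36 (log2 -2.18, SE 0.35, adjusted p = 0.0161). It was called in 5 of the 9 fits without 1 library. Efnb3, a membrane-bound ephrin (chromosome 11, 69554092 to 69560205), was at 182, 214, 268, 541 and 238 against 33, 12, 13 and 51 (log2 -3.34, SE 0.36, adjusted p = 0.00132). The cytokine gene Il15 was at 119, 108, 131, 214 and 133 against 42, 24, 43 and 36 (log2 -1.87, SE 0.27, adjusted p = 0.00772), and lost its call only without Cre+ replicate 4 (0.0532). The highest value of each of Pln, Agtr1a, Efnb3 and Il15 was that of control replicate 4.

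Some genes of the contractile apparatus and its turnover fell while the skeletal forms rose. Myot, the Z-disc protein myotilin, was at 153, 79, 69, 197 and 245 in controls and at 8, 38, 8 and 12 in Cre+ (log2 -3.12, SE 0.49, adjusted p = 0.0137). Tmod4, which caps the slow end of actin filaments, was at 187, 142, 82, 123 and 118 against 51, 27, 19 and 63 (log2 -1.73, SE 0.37, adjusted p = 0.0418). With Cap2 it made 2 falls, against 1 rise (Abra), among 34 actin filament regulators, whose median was 0.18. Asb14 (log2 -2.17, SE 0.44) and Klhl33 (-1.98, SE 0.36), which carry domains of ubiquitin ligase adaptors, fell as well. Cpeb3, which binds the tails of messenger RNA and holds back translation (chromosome 19, 37021291 to 37208601), was at 691, 486, 416, 405 and 274 against 191, 74, 82 and 72 (log2 -2.26, SE 0.31, adjusted p = 0.00586). Cre+ replicate 1 was nearest to the controls for Cpeb3. The steepest fall of all carried a predicted name: Gm34302, annotated as protein coding on chromosome 3 from 63481112 to 63483879, was at 92, 280, 134, 63 and 93 against 3, 0, 0 and 3 (log2 -5.87, SE 0.60, adjusted p = 0.000963). A530016L24Rik was at 233, 162, 171, 216 and 195 against 51, 26, 23 and 48 (log2 -2.39, SE 0.28, adjusted p = 0.00183). Of 516 genes with predicted or clone names tested, 9 rose and 7 fell.

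**Figure D4:**
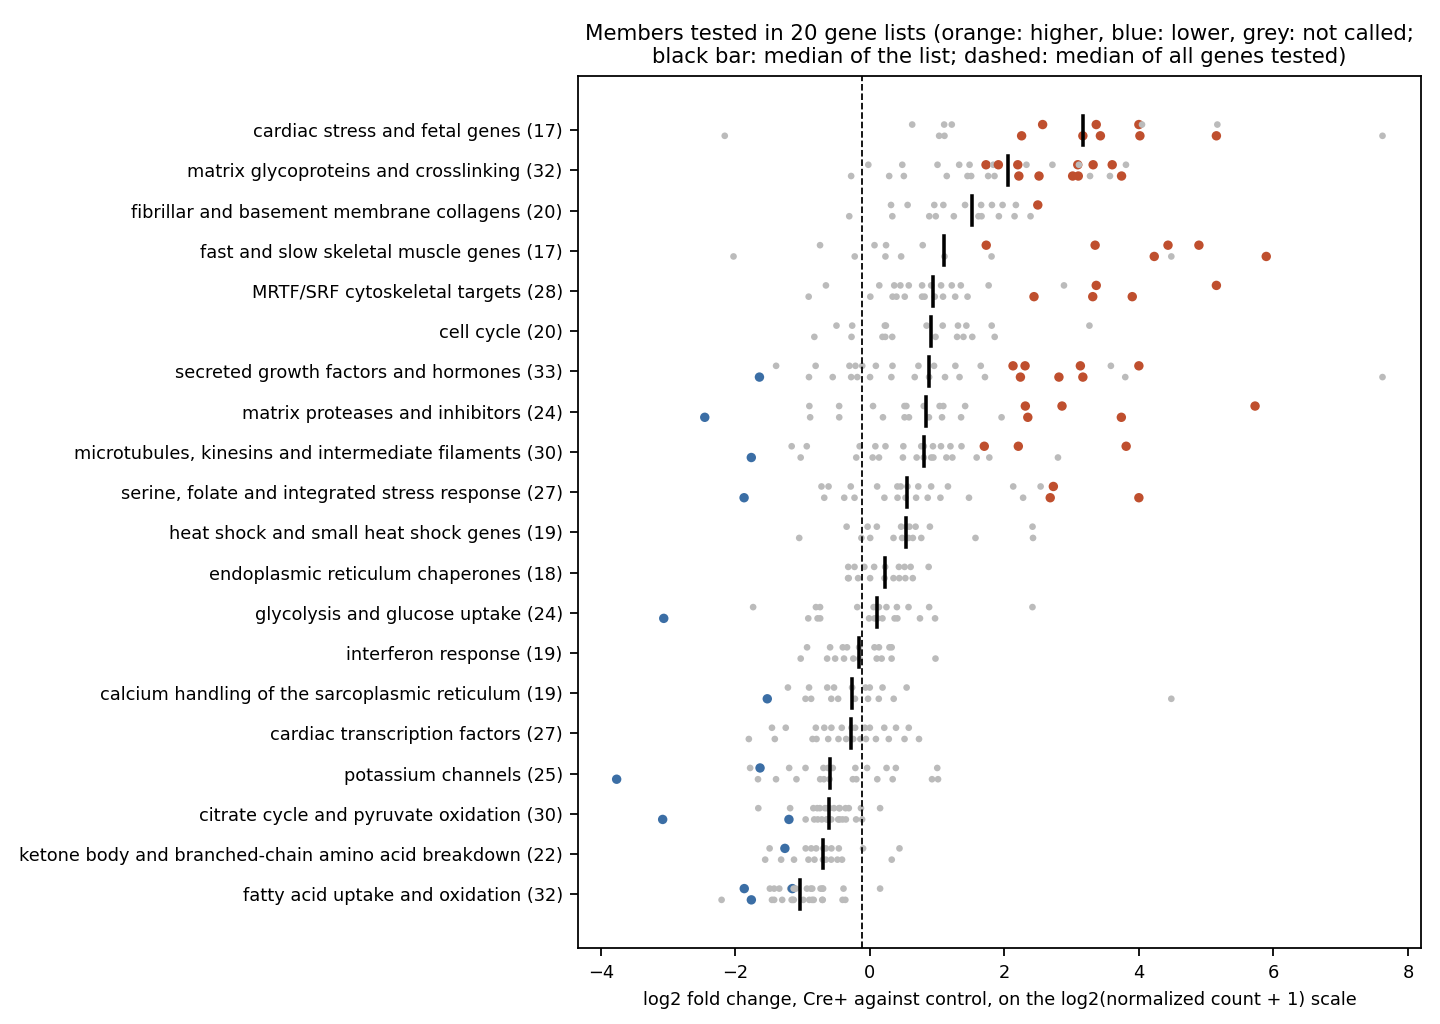
Log2 fold change of every tested member of 20 gene lists (x axis, log2(normalized count + 1) scale), with called members in orange (higher) or blue (lower), the list median as a black bar and the median of all genes (-0.12) dashed. Stress and fetal genes have the highest median (3.17) and fatty acid genes the lowest (-1.05).

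Some gene lists had no call. With 1.88% of all genes tested called, lists of this size often hold none. A list without a call is therefore not shown to be unchanged. Of 44 pathway lists 13 had none by limma, among them 18 endoplasmic reticulum chaperones (median 0.22), 19 heat shock genes (0.54), 27 cardiac transcription factors (-0.27) and 19 interferon response genes (-0.16). At an unadjusted p under 0.05 these 4 lists held 4, 9, 8 and 4 genes. The count for all genes tested at that p is not given here. Among broad lists made by name, 130 of 516 predicted or clone names and 82 of 289 Zfp genes had such a p. Fewer did among the nuclear respiratory chain subunits, 5 of 92. Counts at this p, here and for the other lists, therefore do not show by themselves that a list changed. Among 93 cytosolic ribosomal protein genes, none was called by limma, 4 had an unadjusted p under 0.05, 85 lay above 0 and the median was 0.32. The 289 tested zinc finger genes named Zfp leaned down, with 236 below 0, a median of -0.51 and 1 call, Zfp366 (log2 -1.45, adjusted p = 0.0207). The 20 cell cycle genes had a median of 0.91 and no call by limma, with 7 at an unadjusted p under 0.05, and Cdk1 came nearest, at 0 to 7 in controls and 14, 87, 90 and 21 in Cre+ (adjusted p = 0.0598). The proliferation marker Mki67 was high in Cre+ replicates 2 and 3, at 175 and 181, and at 73 and 37 in the other 2, against 19 to 52 in controls.

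With the mean log2(normalized count + 1) of the atrial markers other than Nppa as a covariate, 17 genes were called. Of the genes with values above, Acta1, 4833412C05Rik, Nmrk2, Ankrd1, Casq1, Myl1, Nppb, Tnnt3, Tnni2, Ogdhl, Gm34302, Adamts7 and Efnb3 were among them, with adjusted p-values of 0.00852 for Acta1 to 0.0416 for Efnb3. Sprr1a, Ptprn and Gm11946 were called there too. Myl1 is itself 1 of the markers in the covariate. The atrial markers other than Nppa summed to 1625 to 9947 in controls, to 3012 in Cre+ replicate 1 and to 27190, 55686 and 50577 in the other Cre+ hearts. Cre+ replicate 1, with 39861 counts of Acta1, 820 of Casq1, 5386 of Nppb and 91 of Ogdhl, was outside the control range for each of these 4 genes.

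Calls lay on every autosome and on X. Chromosome 13, which carries Cap2, had 6 higher and 7 lower calls, Cap2 included, of 427 genes tested. The nearest to Cap2 was Edn1, at 4.19 megabases, followed by Secisbp2, Gadd45g, Dbn1 and Pdlim7 between 5.0 and 8.85 megabases. It was the 1 call among the 47 other genes tested within 5 megabases. Protein-coding genes made up 216 of the 228 calls and 11733 of the genes tested. By mean level, 52 calls fell in the lowest tertile of genes, 64 in the middle and 112 in the highest. By exon length, the tertile with the shortest exon sequence held 63 higher and 45 lower calls with a median log2 change of 0.12, and the tertile with the longest held 23 and 33 with -0.30. The same contrast of long against short genes within a library gave a log2 deviation of 0.66 in control replicate 4, -0.04 to 0.24 in the other controls and -0.44 to -0.04 in Cre+ (exact permutation p = 0.0317, adjusted p = 0.127), and its part in the changes was not tested.

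Part of the rises and of the falls were also called in old hearts without CAP2 in the whole body. Of the 115 genes called higher, 106 were tested in the 86-week hearts and 42 of them were called higher there and none lower (39.6%, edgeR quasi-likelihood test, adjusted p under 0.05). They were 35.9% of the 117 genes called higher at 86 weeks and tested in both. Of the 113 called lower, 107 were tested there, and 18 were called lower and 1 higher (16.8%). Those 18 were among 75 genes called lower at 86 weeks and tested in both. Background shares at 86 weeks were 0.841% called higher and 0.509% called lower of 16297 genes. Age, allele, the cells that lack CAP2 and the library kit all differ between the experiments and cannot be told apart, and neither the overlap nor the difference between directions was tested.

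Acta1 changed by log2 5.15 at 13 weeks and by 4.65 (SE 0.35, edgeR adjusted p = 0.00349) at 86 weeks, and 4833412C05Rik by 5.95 and 5.48. Casq1, Ankrd1, Thbs4 and Tgfb2 were called higher in both, by 4.23 and 2.93 for Casq1 and by 2.81 and 2.10 for Tgfb2. Ogdhl and Efnb3 fell in both, Ogdhl by 3.08 and 0.99 and Efnb3 by 3.34 and 1.23 on the log2 scale. Cap2 fell by 2.22 in the cardiomyocyte deletion and by 4.13 in the whole-body knockout. Several of the steady 13-week calls did not pass at 86 weeks: Tnni2 (log2 0.92, edgeR adjusted p = 0.494), Edn1 (0.42, 0.631), Lgals3 (0.50, 0.562), Pfkfb1 (0.06, 0.967) and A530016L24Rik (-0.21, 0.607). Among the others were the rises Nppb (2.27, edgeR adjusted p = 0.12), Tnnt3 (2.25, 0.117) and Nmrk2 (1.44, 0.284). The steady falls Adamts7 (-0.59, 0.142), Cpeb3 (-0.41, 0.127) and Ttll1 (-0.52, 0.0782) also did not pass there. The fatty acid genes Ucp3 (-0.01, 0.992) and Decr1 (-0.37, 0.144) and the calcium regulator gene Pln (-0.14, 0.733) did not pass there either. Armc2 was called in opposite directions, lower at 13 weeks (log2 -1.60, SE 0.36) and higher at 86 weeks (1.07, SE 0.14).

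**Figure D5:**
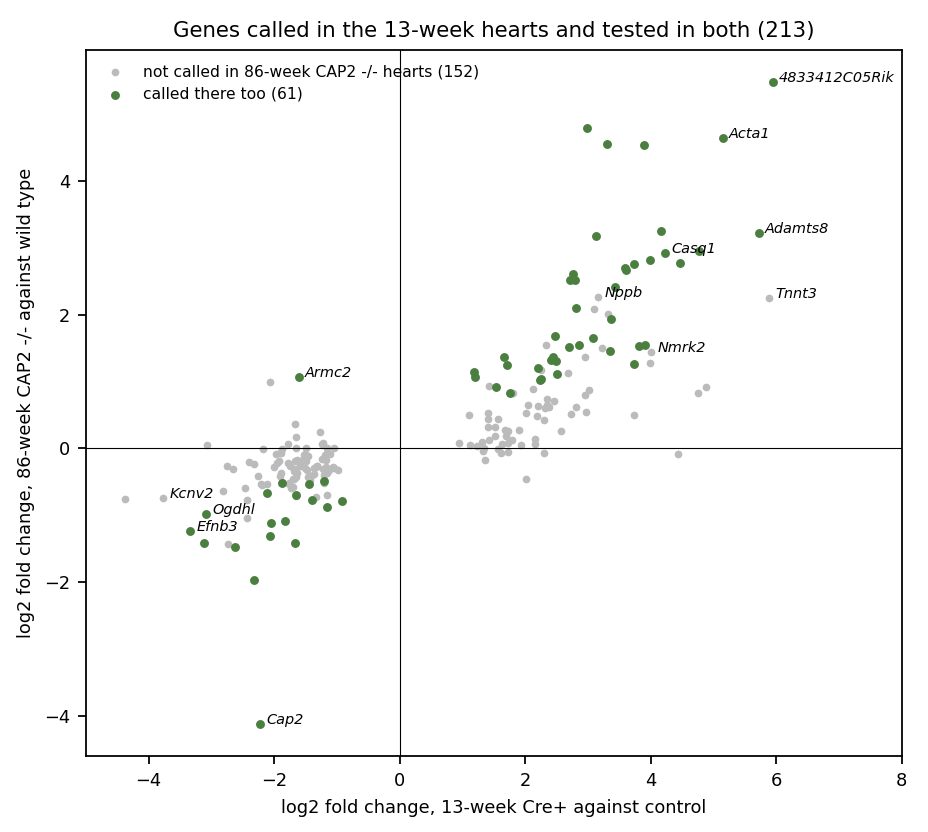
Log2 fold change at 13 weeks (x axis, Cre+ against control, limma) and at 86 weeks (y axis, CAP2 -/- against wild type, edgeR) for the 213 genes called at 13 weeks and tested in both, with the 61 called at 86 weeks too in green. Acta1 and 4833412C05Rik are over 4 on both axes, Cap2 lies lowest at 86 weeks, and Armc2 is the 1 green point in the upper left.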

How the data were processed

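Heart RNA of experiment B was measured in stranded Illumina TruSeq mRNA libraries, per the labels' protocols. The deposited table gives whole-number normalized counts per Ensembl gene, treated as a score because neither the scaling nor the depth is given in the sources used here; STAR 2.6.0c, DESeq and mm10 are named in the submitters' processing notes without a role, and the counting and its strand setting are not given, so antisense or overlapping genes may share reads. Experiment A holds the authors' estimated counts per gene, rounded to whole numbers here, in deposited files. Gene names and coordinates came from GENCODE M21 (54165 of 54232 gene identifiers matched), and promoters from RefSeq.

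The main test was robust limma-trend (limma 3.58.1, R 4.3.3) on log2(normalized count + 1), genes with a mean of at least 10, sex as a term, Benjamini-Hochberg adjustment over all 12141 genes and a threshold of 0.05. Fold changes on this scale understate low genes. Experiment A was tested with edgeR 4.0.16 (TMM, filterByExpr, quasi-likelihood) and DESeq2 1.42.0 as an alternative. Library measures were compared by exact permutation tests. The fits were tested on simulated data. Separate animals are not stated for the replicates, so p-values measure the spread between these samples.

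Genes with values are Cap2, Cap1, the 20 largest rises and falls (called, groups separate, mean at least 50, no predicted name), up to 4 called members of each of 78 lists by smallest p (2 uncalled where fewer than 2 were called), up to 10 called in both experiments and 4 skeletal and cardiac pairs. Any other gene named, such as Trnp1, Armc2, Mylpf, Myh8, Phgdh, Psat1, Atf4, Mki67, Acaa2, Hadh or Lpl, was chosen after its values were seen. The members, lists and tests were chosen with earlier results of these data known. Replicate numbers did not pair the libraries. Alternatives changed the pseudocount, filter, scaling, covariates, weights and libraries. Values are given for part of the called genes, and some results are not reported here.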

Additional observations from a re-analysis of the deposited data

Results flagged for a closer look

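In several genes 1 library lay far from the others of its group, by a gap to the next value that exceeded Dixon's 95% critical value for the group's range. Chance gives such a gap in about 1 of 20 groups, and 22 of 226 groups of values showed one. Control replicate 4 accounted for 8 of them: it was highest for Casq2 (7664, next 3538), Ankrd1 (6120, next 2804), Abcc9 (2685, next 817), Pln (17025, next 8324), Agtr1a (347, next 157), Efnb3 (541, next 268) and Il15 (214, next 133), and lowest for 4833412C05Rik (0, next 1). Control replicate 1 was highest for Nppb at 1502, control replicate 2 lowest for Atp2a1 at 0, and control replicate 5 highest for Edn1 at 39, Serpina3n at 229 and the summed mesothelial and epicardial markers at 954. Control replicate 3 was lowest for the sum of nuclear genes at 3815980 and highest for Malat1 at 13095 and for summed atrial markers at 12458. In Cre+, replicate 1 was highest for Slc25a42 at 118 and Cpeb3 at 191, replicate 2 for Myot at 38, replicate 3 for Edn1 at 212 and Trnp1 at 132, and replicate 3 was lowest for Ogdhl at 50. Armc2 was called lower in the 13-week Cre+ hearts and higher in the 86-week CAP2 -/- hearts, where its log2 change was 1.07. That difference was not tested.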

How the results depend on the processing

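The calls rested on few libraries. Without 1 library the count ran from 39 to 695, the higher calls from 24 to 290 and the lower calls from 14 to 485, and Cap2 from -2.43 to -1.998. Leaving out control replicate 4 and Cre+ replicate 1 together gave 1439 calls, 366 higher and 1073 lower. Calls numbered 346 with no filter on low values (178 lower), 1327 with array quality weights (503 higher, 824 lower), 36 holding the mitochondrial share (26 and 10) and 17 with atrial markers as a covariate (13 and 4), where Cap2 gave -2.19 (adjusted p = 0.238). Quantile normalization gave 211 higher and TMM scaling 72 lower. Of the 86 named genes called beside Cap2, 30 were still called without Cre+ replicate 2 and 86 without Cre+ replicate 1. All kept their direction in each fit, which is no separate support, since the same libraries picked them. Same-numbered libraries correlated at -0.11 to 0.24 in their deviations, so the numbers do not pair them, and a replicate block in place of sex gave 394 calls, 257 of them higher. Uncalled genes turned in sign: Cap1 to -0.24 with the atrial covariate, Tnnt2 to -0.0139 with the mitochondrial share and Casq2 to 0.0341 without both doubted libraries. Without a filter in the 86-week data 94 genes were called the same way in both experiments in place of 60. Allowing 1 mismatch moved the CArG share to 14.3% of genes called higher and 12.3% of those called lower. The depth of experiment B is unknown and limits low genes.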
